A study of Mus musculus with 12 samples.

Results

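The genes described here encode enzymes that act on drugs, toxins and dietary chemicals in 5 classes: carboxylesterases (Ces1 and Ces2 genes), cytochrome P450 families CYP1 to CYP4, glutathione S-transferases, UDP-glucuronosyltransferases and sulfotransferases. They were chosen by a rule on gene symbols. Of 144 such symbols among the 55367 genes of the count table, 53 reached 10 or more counts in at least 2 of the 12 libraries: 11 of 15 carboxylesterases, 21 of 75 P450 genes, 16 of 20 glutathione transferases, 3 of 19 UDP-glucuronosyltransferases and 2 of 15 sulfotransferases. The other 91 symbols held at most 11 counts in any library, and 44 of them held none.

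RNA was sequenced from mouse tongue organoids, which are epithelial cultures from circumvallate papilla (CVP) and foliate papilla (FoP). Each line had 4 libraries labelled Foxe1 knock-out (KO), from clones 2.9 and 2.10 in CVP and clones 2.4 and 2.5 in FoP in duplicate, and 2 wild type (WT) libraries. Foxe1 is a forkhead transcription factor; no treatment besides genetic modification is labelled, and the labels used here give neither the lesion nor the strain, sex or age of the mice. No WT library is labelled as a clone, so genotype and derivation of a clone cannot be told apart, and nothing labels the duplicates as separate cultures, so p-values measure the spread between these libraries, which may be technical.

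Carboxylesterases cut ester and amide bonds of drugs and lipids. P450 enzymes sit in the endoplasmic reticulum, take electrons from the reductase encoded by Por and add oxygen to a substrate, and the transferases then attach glutathione, glucuronic acid or sulfate so that the product can leave the cell. These systems are best known in liver, while oral, airway and gut epithelia carry their own sets. The receptor AHR, a sensor of aromatic compounds, switches on CYP1 genes from DNA elements with the core GCGTG, and the factor NRF2 acts on many glutathione transferase genes from elements related to TGACNNNGC.

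Promoters of members on which the comparisons turn are printed as the 250 bases before the RefSeq gene start (GRCm38.p6), read 5′ to 3′ on the strand of the gene. Cyp1a1, Cyp2j12 and Cyp1b1 are shown because they hold GCGTG and moved in different directions in CVP, and Gsta3 because it holds TGACNNNGC. Capitals mark the motif, which in Cyp1b1 lies on the other strand and so is read as its reverse complement. Cyp1a1 lies at chr9:57697363-57697612 (plus strand), Cyp2j12 at chr4:96141153-96141402 (minus strand), Cyp1b1 at chr17:79715062-79715311 (minus strand) and Gsta3 at chr1:21240335-21240584 (plus strand).
Cyp1a1: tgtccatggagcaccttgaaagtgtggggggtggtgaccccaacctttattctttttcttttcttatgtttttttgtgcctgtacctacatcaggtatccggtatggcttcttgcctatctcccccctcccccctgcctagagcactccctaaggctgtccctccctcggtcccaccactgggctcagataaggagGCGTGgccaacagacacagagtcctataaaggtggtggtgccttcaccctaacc
Cyp2j12: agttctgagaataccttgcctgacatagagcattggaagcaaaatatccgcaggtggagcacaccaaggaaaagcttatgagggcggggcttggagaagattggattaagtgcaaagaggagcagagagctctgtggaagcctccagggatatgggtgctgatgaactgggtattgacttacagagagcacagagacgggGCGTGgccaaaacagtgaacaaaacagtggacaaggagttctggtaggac
Cyp1b1: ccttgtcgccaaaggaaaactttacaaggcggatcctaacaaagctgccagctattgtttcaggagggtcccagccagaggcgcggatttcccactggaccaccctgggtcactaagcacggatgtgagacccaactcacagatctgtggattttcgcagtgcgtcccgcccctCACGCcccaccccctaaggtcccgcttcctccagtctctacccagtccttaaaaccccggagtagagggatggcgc
Gsta3: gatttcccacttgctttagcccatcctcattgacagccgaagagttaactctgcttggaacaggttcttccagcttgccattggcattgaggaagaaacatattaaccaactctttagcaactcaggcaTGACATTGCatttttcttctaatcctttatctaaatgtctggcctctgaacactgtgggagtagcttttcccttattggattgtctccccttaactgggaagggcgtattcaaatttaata

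Counted back from the gene start, the motif begins at base -54 in Cyp1a1, -50 in Cyp2j12, -76 in Cyp1b1 and -121 in Gsta3, where its letters are TGACATTGC; Cyp1a1 also has a TATAAA box at -30. A promoter was matched for 44 of the 53 genes. Searched on both strands from 250 bases before to 50 after the start, GCGTG was present in 14 of the 44 (31.8%), against 35.2% of 27025 genes with a promoter. TGACNNNGC was present in 5 of the 44 (11.4%), against 14.0% of those genes. The 5 were Cyp2j6, Cyp4f39, Gsta3, Gstm5 and Gstm7. In the comparison of KO with WT below, Gsta3 fell and Gstm7 rose in both lines. Cyp2j6 and Cyp4f39 fell in CVP only, and Gstm5 passed in neither line. A motif match is a description of these letters and not a measured binding site.

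Libraries held 59.3 to 73.6 M counts and 21421 to 22602 genes, and all 53 members passed the filter for testing (17076 genes). Foxe1 transcript did not separate the labels: clone 2.9 held 1527 and 1432 counts and clone 2.10 held 487 and 547, against 1049 and 1144 in CVP WT, while clone 2.4 held 1471 and 1292 and clone 2.5 held 707 and 660, against 1124 and 989 in FoP WT. All 12 lingual keratinocyte markers and 14 of 15 salivary gland markers passed the filter, but 3 of 10 taste cell markers did, with Car4 at 0 in every library. The summed keratinocyte list was 11118 to 14201 CPM in CVP KO against 7259 to 7818 CPM in CVP WT, and 10038 to 12992 CPM in FoP KO against 10029 to 10207 CPM in FoP WT. Of its 12 genes, 3 rose and 8 fell in CVP KO (median log2 -0.69) and 2 rose and 5 fell in FoP KO (-0.35), with Lor, Sprr1b, Ivl, Sbsn and Krtdap falling in both, so the sum ran opposite to most of its genes in CVP. The salivary list was 7551 to 13277 CPM in CVP KO against 9639 to 10740 CPM in CVP WT, and 12109 to 14103 CPM in FoP KO against 6815 to 6863 CPM in FoP WT. Of its 14 tested genes, 1 rose and 10 fell in CVP KO (median -1.56) and 2 rose and 7 fell in FoP KO (-0.61), where the sum was higher in KO. Hepatocyte markers (Alb, Ttr and others) summed to at most 0.076 CPM, counts per M of library-scaled total, the unit of all levels below. The summed immune list was 10.3 to 18.1 CPM in CVP KO against 104 to 108 CPM in CVP WT, and 38.2 to 66.9 CPM in FoP KO against 65.6 to 69.6 CPM in FoP WT, with the leukocyte marker Ptprc at 0 throughout; of its 4 tested genes 3 fell in CVP KO and 2 in FoP KO. The summed fibroblast list was 179 to 288 CPM in CVP KO against 29.9 to 35.9 CPM in CVP WT, and 44.1 to 57.1 CPM in FoP KO against 28.4 to 33.9 CPM in FoP WT. In both lines its genes Fbn1 and Pdgfra rose, Dcn fell, and Col1a1 and Col1a2 did not pass (median log2 0.02 over the 5 in CVP and -0.44 in FoP). The part of these lists in the results was not tested, and in bulk RNA fewer cells of a type and less RNA per cell cannot be told apart.

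Scaled by exon length as CPM per kb, and averaged over the 12 libraries, the transferase Gsto1 stood highest among the members at 1383 CPM per kb, followed by Gsta4 at 390 CPM per kb. Cyp2f2 at 93.1, Gstm1 at 66.5, Gstp1 at 42.1 and Cyp4b1 at 37.4 CPM per kb came next. Ces1d at 29.5 and Ces2g at 27.6 CPM per kb led the esterases. Cyp2f2 and Cyp4b1 encode P450 enzymes best known from airway epithelium, and Gsto1 encodes an omega-class transferase that reduces thiol and arsenic compounds.

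The comparison of KO with WT asked, in each line, which of these enzymes differ with the label Foxe1 knock-out. In CVP, 32 of the 53 members passed (60.4%, against 46.4% of all genes tested; adjusted p under 0.05, edgeR quasi-likelihood test): 8 rose and 24 fell, against 23.5% of all genes higher and 22.9% lower. In FoP, 18 passed (34.0%, against 28.8% of all genes): 4 rose and 14 fell, against 13.5% and 15.3% of all genes. The median log2 fold change over the 53 was -0.45 in CVP (0.03 over all genes tested) and -0.27 in FoP (0.01). In both lines 13 fell, namely Ces1b, Ces1d, Ces1f, Ces1h, Cyp1a1, Cyp2j12, Gsta3, Gstm1, Gstm2, Gstp1, Gstp2, Gsto2 and Sult2b1, while Cyp2f2, Cyp4b1 and Gstm7 rose in both. None passed in opposite directions, and 19 passed in neither line.

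The KO libraries all lay beyond both WT libraries for 40 members in CVP (75.5%, against 61.7% of all genes), 10 above and 30 below (31.7% and 30% of all genes). They did so for 28 in FoP (52.8%, against 49.7%), 6 above and 22 below (23.9% and 25.8%). Changes past 2-fold among the called members numbered 5 up and 19 down in CVP (6.45% and 4.9% of all genes, 11.3% in all). In FoP they numbered 2 up and 10 down (2.44% and 3.25% of all genes, 5.69% in all). When duplicates were summed, leaving 1 library for each of the 6 cultures, 16 of the 32 CVP calls and 3 of the 18 FoP calls remained. The members called in that fit were 30.2% of the 53 in CVP and 5.66% in FoP, against 20% and 2.18% of all genes tested in the same fit. The FoP calls kept were Cyp2j12, Gsta3 and Gstm1. The CVP calls of Ces1d, Ces1f, Ces1h, Ces2c, Ces2f, Cyp2j6, Cyp3a13, Cyp4b1, Cyp4f39, Gsta1, Gstm2, Gstm7, Gsto2, Gstp2, Gstt1 and Ugt1a6a ended.

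**Figure D1:**
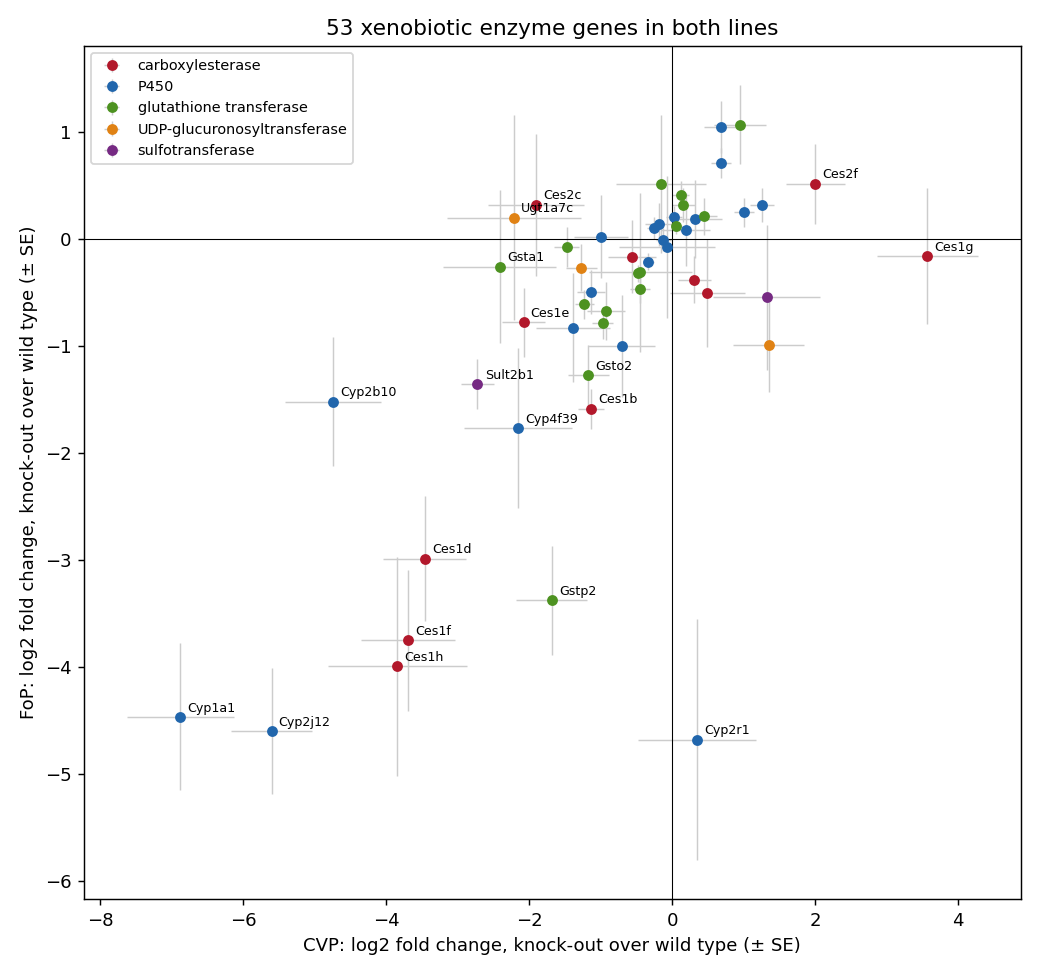
Log2 fold change of each of the 53 members, KO over WT, in CVP (horizontal axis) and FoP (vertical axis), with bars of 1 standard error and colour by enzyme class. Cyp1a1, Cyp2j12, Ces1d, Ces1f and Ces1h sit at the lower left, below -2.9 in both lines by their values in the text, while Ces1g lies far to the right and Cyp2r1 far down.

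Of the 11 carboxylesterase genes, 2 rose and 6 fell in CVP KO, and 4 fell in FoP KO with the other 7 not passing. These calls were 72.7% of the class in CVP and 36.4% in FoP, against 46.4% and 28.8% of all genes. Their summed level was 137 ± 53.8 CPM in CVP KO against 452 ± 54.5 CPM in CVP WT, and 127 ± 21.4 CPM in FoP KO against 277 ± 25.2 CPM in FoP WT (SD, n = 4 and n = 2). Ces2g held 63.4% of that sum in CVP KO against 28.4% in CVP WT, and 72.5% in FoP KO against 37.8% in FoP WT. The median log2 fold change over the class was -1.13 in CVP and -0.50 in FoP.

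Ces1d, which encodes an abundant lipid and drug hydrolase, carried most of the difference. It had 29.1 and 38.4 CPM in clone 2.9 and 9.52 and 13.2 CPM in clone 2.10, against 228 and 268 CPM in CVP WT. In FoP it had 7.35 and 7.40 CPM in clone 2.4 and 20.6 and 15.6 CPM in clone 2.5, against 90.3 and 112 CPM in FoP WT. Every KO library lay far below both WT libraries of its line (log2 -3.46 ± 0.58, adjusted p = 0.00136 in CVP, and -2.99 ± 0.59, adjusted p = 0.00578 in FoP). Ces1f, a neighbouring esterase gene, had 5.29 and 7.21 CPM in clone 2.9 and 0.949 and 1.25 CPM in clone 2.10, against 36.5 and 58.5 CPM in CVP WT. It had 3.42 and 2.85 CPM in clone 2.4 and 3.78 and 2.76 CPM in clone 2.5, against 38.5 and 47.9 CPM in FoP WT. The groups stood apart in both lines (log2 -3.69 ± 0.65 and -3.75 ± 0.66, adjusted p = 0.0017 and 0.00316). With duplicates summed per culture neither gene kept its call, with adjusted p of 0.0941 and 0.107 in CVP and 0.19 and 0.172 in FoP for Ces1d and Ces1f.

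Ces1h, another Ces1 esterase, was near the limit of counting. It had 0 and 0.0951 CPM in clone 2.9 and 0 and 0.0309 CPM in clone 2.10, against 0.556 and 0.389 CPM in CVP WT, and 0.0608 and 0.0310 CPM in clone 2.4 and 0 in both libraries of clone 2.5, against 0.232 and 0.582 CPM in FoP WT. It held 8 counts over the 4 CVP KO libraries against 66 in CVP WT, a WT to KO ratio of 15.2 (95% counting interval 7.28 to 36.7), and 6 counts in FoP KO against 52 in FoP WT, a ratio of 16.6 (7.15 to 47.4). Both falls passed (adjusted p = 0.00592 and 0.0106), while the FoP call ended without WT duplicate 2 (adjusted p = 0.115), without clone 2.5 (0.0536) or with summed duplicates (0.144), and the CVP call ended with summed duplicates (0.0831). Ces1b averaged 5.95 ± 0.792 CPM in CVP KO against 13.04 ± 2.08 CPM in CVP WT. Means were 3.28 ± 0.728 CPM in FoP KO against 9.86 ± 0.770 CPM in FoP WT. It fell in both lines (log2 -1.13 ± 0.18 and -1.59 ± 0.19), though 11.6% of its 50-base windows also occur in other genes, mostly Ces1c, so its level is uncertain. Ces1e averaged 0.837 ± 0.167 CPM in CVP KO against 3.54 ± 1.51 CPM in CVP WT. Means were 0.708 ± 0.206 CPM in FoP KO against 1.22 ± 0.0166 CPM in FoP WT. It fell in CVP (log2 -2.08 ± 0.31, adjusted p = 0.000139) and did not pass in FoP (-0.78 ± 0.32, adjusted p = 0.0893).

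Ces1g, whose mouse product is known as esterase-x of liver and gut lipid handling, went the other way in CVP. It had 3.40 and 1.68 CPM in clone 2.9 and 1.93 and 0.510 CPM in clone 2.10, against 0.132 and 0.180 CPM in CVP WT. All 4 KO libraries were above WT there (log2 3.57 ± 0.71, adjusted p = 0.00126), with an adjusted p of 0.0699 in limma voom with culture as block. In FoP, 0.243 and 0.124 CPM in clone 2.4 and 0.350 and 0.382 CPM in clone 2.5 overlapped 0.320 and 0.291 CPM in FoP WT (log2 -0.16 ± 0.63, adjusted p = 0.882).

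Among Ces2 genes, which encode esterases of gut and liver, Ces2g was the most abundant per kb. It had 107 and 121 CPM in clone 2.9 and 54.4 and 63.5 CPM in clone 2.10, against 124 and 132 CPM in CVP WT (log2 -0.57 ± 0.34, adjusted p = 0.205). In FoP it had 117 and 108 CPM in clone 2.4 and 80.0 and 66.8 CPM in clone 2.5, against 102 and 107 CPM in FoP WT (-0.17 ± 0.34, adjusted p = 0.766). All 4 CVP KO libraries lay below both CVP WT libraries, clone 2.9 by less than clone 2.10. In FoP both libraries of clone 2.5 lay below FoP WT and both of clone 2.4 above it. Ces2f averaged 3.46 ± 1.196 CPM in CVP KO against 0.859 ± 0.179 CPM in CVP WT and rose (log2 2.01 ± 0.41, adjusted p = 0.00141; 0.0857 with summed duplicates), and averaged 2.33 ± 0.899 CPM in FoP KO against 1.63 ± 0.0170 CPM in FoP WT (0.52 ± 0.38, adjusted p = 0.34). Ces2c averaged 0.133 ± 0.114 CPM in CVP KO against 0.500 ± 0.0391 CPM in CVP WT and fell (log2 -1.90 ± 0.67, adjusted p = 0.0328). That call ended without WT duplicate 1 (0.132), WT duplicate 2 (0.0907), the first library of clone 2.9 (0.0635) or of clone 2.10 (0.0726), all of clone 2.10 (0.119) or with summed duplicates (0.0693), and 36.1% of its windows are shared with other genes. Ces2e averaged 11.4 ± 2.67 CPM in CVP KO against 9.15 ± 0.913 CPM in CVP WT, and 10.4 ± 2.34 CPM in FoP KO against 13.6 ± 1.31 CPM in FoP WT, and passed in neither line.

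**Figure D2:**
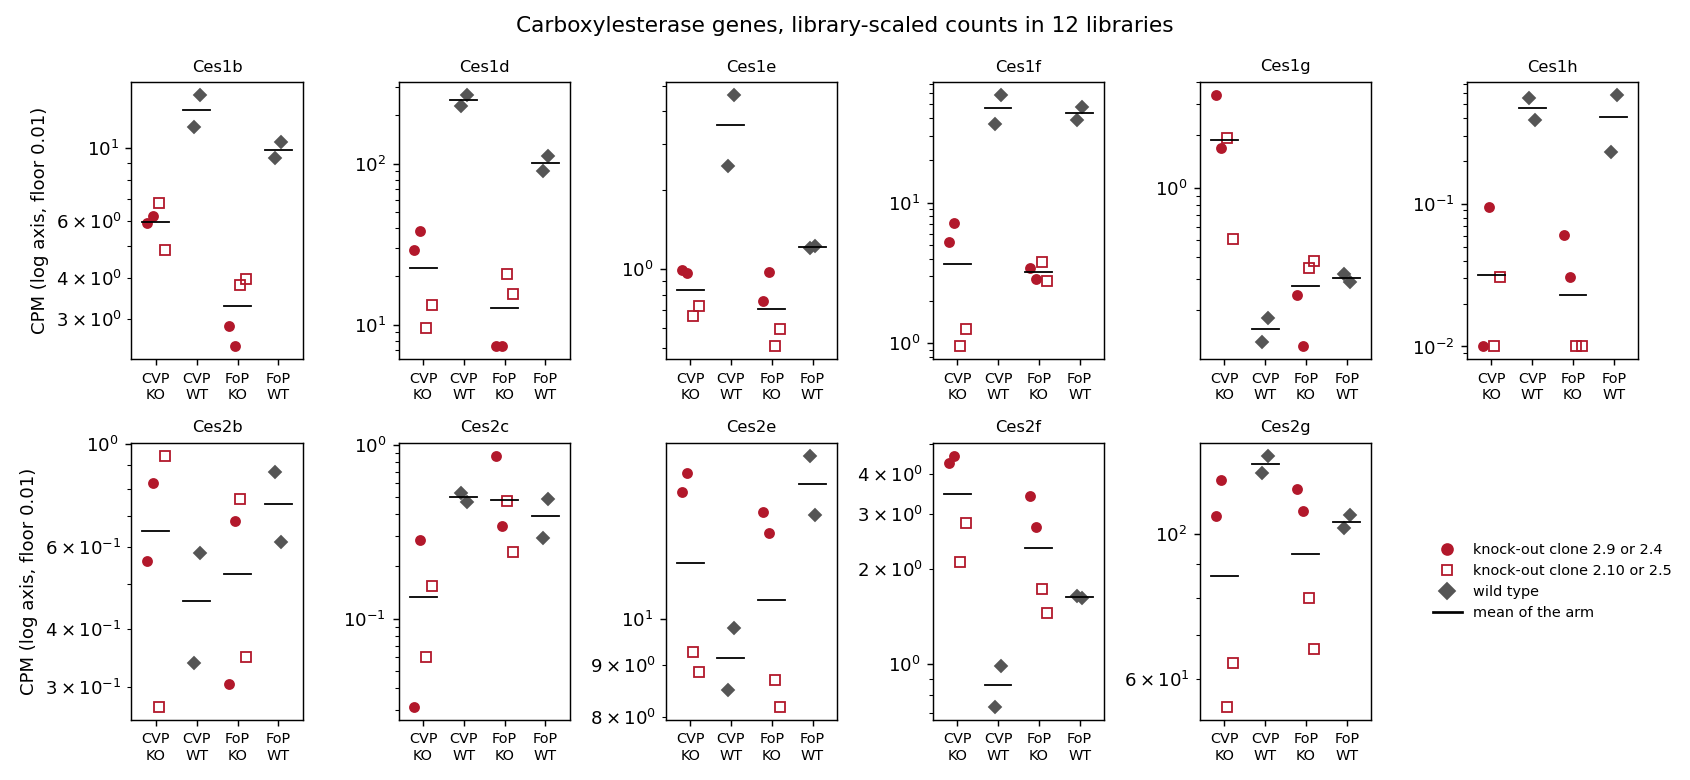
CPM on a log axis (values below 0.01 drawn at 0.01) of the 11 described carboxylesterase genes in each library, with KO left of WT in each line, circles and squares for the 2 clones and a bar at the mean of each arm. Ces1d and Ces1f lie far below WT in all 8 KO libraries, whereas Ces1g is above WT in CVP KO and overlaps it in FoP.

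Of the 21 P450 genes, 4 rose and 7 fell in CVP KO, and 2 rose and 3 fell in FoP KO. The share called was 52.4% in CVP against 46.4% of all genes, and 23.8% in FoP against 28.8%, so as a class the P450 genes lay near the background in both lines. Their summed level was 749 ± 86.7 CPM in CVP KO against 696 ± 17.2 CPM in CVP WT. Means were 701 ± 88.6 CPM in FoP KO against 606 ± 3.30 CPM in FoP WT. The median log2 fold change over the class was -0.18 in CVP and -0.01 in FoP.

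Cyp1a1, the textbook target of AHR that oxidises polycyclic aromatic compounds, was nearly absent from KO libraries. It had 0.0620 and 0.0951 CPM in clone 2.9 and 0 in both libraries of clone 2.10, against 3.10 and 6.48 CPM in CVP WT. In FoP it had 0.0608 and 0.0619 CPM in clone 2.4 and 0.191 and 0.0347 CPM in clone 2.5, against 1.48 and 2.48 CPM in FoP WT. Every KO library lay far below WT, and the 10 counts in CVP KO against 679 in CVP WT gave a WT to KO ratio of 125 (95% counting interval 67.6 to 262). The fitted falls were log2 -6.88 ± 0.75 (adjusted p = 2.57e-05) in CVP and -4.47 ± 0.69 (adjusted p = 0.000637; 0.132 with summed duplicates) in FoP, and at so few counts a fitted value moves with the prior count that edgeR adds.

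Cyp1b1, a CYP1 enzyme that acts on steroids and aromatic compounds, was high and did not follow Cyp1a1. It averaged 113 ± 6.39 CPM in CVP KO against 56.4 ± 6.75 CPM in CVP WT. Means were 89.1 ± 14.9 CPM in FoP KO against 75.0 ± 2.50 CPM in FoP WT. It rose in CVP (log2 1.01 ± 0.14, adjusted p = 0.000155) and did not pass in FoP (0.25 ± 0.13, adjusted p = 0.195).

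Cyp2j12, a member of the CYP2J group of fatty acid oxygenases, had 0.186 and 0.0634 CPM in clone 2.9 and 0.0301 and 0.0928 CPM in clone 2.10, against 4.25 and 4.98 CPM in CVP WT. In FoP it had 0.0912 and 0 CPM in clone 2.4 and 0.0953 and 0.0694 CPM in clone 2.5, against 1.26 and 1.93 CPM in FoP WT. It fell in both lines (log2 -5.61 ± 0.56, adjusted p = 9.3e-06, and -4.60 ± 0.59, adjusted p = 0.000136), and both calls stood in each alternative run that gives single-gene values. Cyp2j6, of the same group, had 108 and 118 CPM in clone 2.9 and 94.3 and 95.9 CPM in clone 2.10, against 135 and 126 CPM in CVP WT, and 109 and 103 CPM in clone 2.4 and 101.08 and 97.4 CPM in clone 2.5, against 118 and 119 CPM in FoP WT. KO lay below WT by a small step in both lines: Cyp2j6 averaged 104 ± 10.99 CPM in CVP KO against 131 ± 6.48 CPM in CVP WT (log2 -0.33 ± 0.08, adjusted p = 0.00392; 0.0601 without WT duplicate 1 and 0.108 with summed duplicates), and 102 ± 4.64 CPM in FoP KO against 119 ± 0.556 CPM in FoP WT (-0.21 ± 0.08, adjusted p = 0.0624). Cyp2j9 was at -0.12 ± 0.11 in CVP and -0.01 ± 0.11 in FoP on the log2 scale and passed in neither line.

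Cyp2b10, the mouse gene known for its induction by phenobarbital through the receptor CAR, had 0.0620 and 0.158 CPM in clone 2.9 and 0 and 0.186 CPM in clone 2.10, against 2.46 and 3.05 CPM in CVP WT. Clone 2.4 had 0.699 and 0.944 CPM and clone 2.5 had 0.572 and 0.278 CPM, against 2.43 and 1.16 CPM in FoP WT. The KO libraries were below WT in both lines, and the fall passed in CVP (log2 -4.75 ± 0.68, adjusted p = 0.000151) but not in FoP (-1.52 ± 0.61, adjusted p = 0.0814).

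Cyp2f2 was the most abundant P450 transcript per kb. It had 278 and 306 CPM in clone 2.9 and 232 and 230 CPM in clone 2.10, against 144 and 181 CPM in CVP WT. Clone 2.4 had 155 and 184 CPM and clone 2.5 had 183 and 162 CPM, against 97.2 and 112 CPM in FoP WT. It rose by a like amount in both lines (log2 0.69 ± 0.14, adjusted p = 0.00199, and 0.71 ± 0.14, adjusted p = 0.00327; 0.0875 in FoP with summed duplicates). Cyp4b1 averaged 97.3 ± 19.9 CPM in CVP KO against 60.7 ± 1.23 CPM in CVP WT. Means were 101.06 ± 24.4 CPM in FoP KO against 49.0 ± 1.16 CPM in FoP WT. It rose in both (log2 0.68 ± 0.24, adjusted p = 0.0403, and 1.04 ± 0.24, adjusted p = 0.0106). The CVP call stood in 14 of 25 alternatives, with adjusted p of 0.148 and 0.159 without either CVP WT library, 0.081 without the second library of clone 2.9, 0.0822 without the second of clone 2.10 and 0.0551 without either FoP WT library, and the FoP call ended without either FoP WT library (0.0788 and 0.0687).

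Cyp2d22, the CYP2D gene that acts on amine drugs, had 59.4 and 97.3 CPM in clone 2.9 and 41.6 and 84.6 CPM in clone 2.10, against 149 and 133 CPM in CVP WT. Clone 2.4 had 175 and 148 CPM and clone 2.5 had 92.3 and 80.7 CPM, against 131 and 114 CPM in FoP WT. It passed in neither line (log2 -0.99 ± 0.38, adjusted p = 0.0597, and 0.02 ± 0.39, adjusted p = 0.976), and the FoP clones stood on opposite sides of WT.

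Cyp4f16, of the CYP4F fatty acid hydroxylases, averaged 14.05 ± 2.28 CPM in CVP KO against 5.87 ± 1.04 CPM in CVP WT and rose (log2 1.26 ± 0.17, adjusted p = 5.82e-05), and averaged 8.04 ± 0.870 CPM in FoP KO against 6.46 ± 0.289 CPM in FoP WT (0.31 ± 0.16, adjusted p = 0.163); 17.4% of its windows are shared with other genes. Cyp2s1, an epithelial P450, averaged 13.8 ± 3.74 CPM in CVP KO against 30.3 ± 1.30 CPM in CVP WT and fell (log2 -1.14 ± 0.20, adjusted p = 0.000901), and averaged 22.1 ± 1.64 CPM in FoP KO against 31.2 ± 0.770 CPM in FoP WT (-0.50 ± 0.20, adjusted p = 0.0924). Cyp4f39, which makes skin barrier lipids, averaged 4.16 ± 3.70 CPM in CVP KO against 18.5 ± 2.12 CPM in CVP WT, with log2 -2.16 ± 0.75 (adjusted p = 0.0428), and 6.11 ± 1.83 CPM in FoP KO against 20.8 ± 0.240 CPM in FoP WT (-1.77 ± 0.75, adjusted p = 0.114). Its CVP fall stood in 11 of 25 alternatives, and that of Cyp3a13 (log2 -1.39 ± 0.51, adjusted p = 0.0455) in 9 of 25. Both values were close to the threshold: with 1 library left out the call was kept in 3 of 12 fits for Cyp4f39 and 2 of 12 for Cyp3a13, and it also ended with no filter (adjusted p = 0.0904 and 0.143), with duplicate number as a block (0.0605 and 0.0587) and with summed duplicates (0.28 and 0.311). Without CVP WT duplicate 1 or 2 the adjusted p was 0.153 or 0.104 for Cyp4f39 and 0.187 or 0.11 for Cyp3a13, without the second library of clone 2.10 it was 0.0743 and 0.059 and without the first 0.077 for Cyp3a13, and over the libraries of the other line it ran from 0.0504 to 0.0611.

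Cyp2r1, the vitamin D 25-hydroxylase, passed in FoP and not in CVP. It held 2 counts over the 4 FoP KO libraries against 33 in FoP WT, a WT to KO ratio of 31.7 (95% counting interval 8.11 to 273). The fitted fall was log2 -4.68 ± 1.13 (adjusted p = 0.00775; 0.0548 without clone 2.4 and 0.166 with summed duplicates). In CVP it had 0.0620 and 0.127 CPM in clone 2.9 and 0.587 and 0.526 CPM in clone 2.10, against 0.205 and 0.305 CPM in CVP WT, and the clones lay on opposite sides of WT. The other members with at least 1 CPM in some arm, Cyp4f13, Cyp4f17, Cyp4v3 and Cyp2j9, did not pass in either line.

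Of the 16 glutathione transferases, 1 rose and 9 fell in CVP KO, and 2 rose and 6 fell in FoP KO. The share called was 62.5% in CVP against 46.4% of all genes, and 50% in FoP against 28.8%. Their summed level was 2024 ± 370 CPM in CVP KO against 4420 ± 194 CPM in CVP WT. Means were 4564 ± 388 CPM in FoP KO against 4766 ± 155 CPM in FoP WT. Gsto1 alone made up 60.9% of the sum in CVP KO and 77.8% in FoP KO, against 78.2% in CVP WT and 78.6% in FoP WT. The class median of the log2 fold change was -0.46 in CVP and -0.29 in FoP.

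Gsto1 had 1232 and 1542 CPM in clone 2.9 and 842 and 1354 CPM in clone 2.10, against 3609 and 3305 CPM in CVP WT. Clone 2.4 had 3117 and 3506 CPM and clone 2.5 had 3594 and 3989 CPM, against 3885 and 3604 CPM in FoP WT. It fell in CVP (log2 -1.48 ± 0.18, adjusted p = 6.38e-05), and the FoP groups overlapped (-0.08 ± 0.19, adjusted p = 0.802). Its genomic neighbour Gsto2 was low and fell in both lines: it averaged 0.732 ± 0.101 CPM in CVP KO against 1.66 ± 0.123 CPM in CVP WT (log2 -1.18 ± 0.29, adjusted p = 0.00454; 0.0547 with summed duplicates), and 1.10 ± 0.175 CPM in FoP KO against 2.66 ± 1.27 CPM in FoP WT (-1.27 ± 0.28, adjusted p = 0.00445; 0.0911 with summed duplicates). Without FoP WT duplicate 1 the FoP value was -0.68 (adjusted p = 0.165).

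Gsta3, an alpha-class transferase known for detoxifying aflatoxin in mice, had 84.3 and 116 CPM in clone 2.9 and 76.2 and 115 CPM in clone 2.10, against 184 and 200 CPM in CVP WT. Clone 2.4 had 132 and 136 CPM and clone 2.5 had 122 and 127 CPM, against 219 and 228 CPM in FoP WT. Its fall passed in both lines (log2 -0.97 ± 0.15, adjusted p = 0.000392, and -0.79 ± 0.15, adjusted p = 0.00294) and in each of 25 alternatives in both. Gsta4, which clears the lipid aldehyde 4-hydroxynonenal, had 477 and 482 CPM in clone 2.9 and 361 and 411 CPM in clone 2.10, against 399 and 398 CPM in CVP WT (log2 0.12 ± 0.12, adjusted p = 0.463). Clone 2.4 had 584 and 534 CPM and clone 2.5 had 696 and 652 CPM, against 442 and 483 CPM in FoP WT, where it rose in KO (0.41 ± 0.12, adjusted p = 0.0255). That call ended without FoP WT duplicate 1 (0.185) or 2 (0.0797), without the first or second library of clone 2.5 (0.0543 and 0.0545), without clone 2.5 (0.136), with no filter (0.09) and with summed duplicates (0.258).

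The mu-class transferases lie side by side on chromosome 3 and did not move together. Gstm1 averaged 66.3 ± 11.6 CPM in CVP KO against 156 ± 1.59 CPM in CVP WT. Means were 84.8 ± 8.46 CPM in FoP KO against 129 ± 2.00 CPM in FoP WT. It fell in both lines (log2 -1.23 ± 0.13, adjusted p = 3.76e-05, and -0.61 ± 0.14, adjusted p = 0.00674; 0.0538 in FoP without WT duplicate 2). Gstm2 also fell, at log2 -0.45 ± 0.14 (adjusted p = 0.0175; 0.197 without CVP WT duplicate 2) and -0.47 ± 0.14 (adjusted p = 0.0232; 0.0794 and 0.153 without FoP WT duplicates 1 and 2, 0.0517 and 0.0528 without the second libraries of clones 2.4 and 2.5). Gstm4 and Gstm5 passed in neither line, with Gstm5 at 37.1 ± 7.44 CPM in CVP KO against 27.2 ± 2.64 CPM in CVP WT (log2 0.44 ± 0.18, adjusted p = 0.0655). Gstm7 averaged 1.41 ± 0.382 CPM in CVP KO against 0.732 ± 0.0831 CPM in CVP WT. Means were 1.11 ± 0.301 CPM in FoP KO against 0.530 ± 0.257 CPM in FoP WT. Its rise passed narrowly (log2 0.95 ± 0.36, adjusted p = 0.0472, and 1.07 ± 0.37, adjusted p = 0.0471) and stood in 10 and 11 of 25 alternatives, with adjusted p of up to 0.227 in CVP (without CVP WT duplicate 1) and 0.361 in FoP (without FoP WT duplicate 1), and without any 1 of 8 of the 12 libraries in each line the call ended. Of the windows of Gstm1, 18.9% are shared with other genes.

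The pi-class pair Gstp1 and Gstp2 fell in both lines. Gstp1, the main transferase of many epithelia, averaged 58.1 ± 6.66 CPM in CVP KO against 80.8 ± 1.60 CPM in CVP WT, and 59.7 ± 1.48 CPM in FoP KO against 74.6 ± 4.93 CPM in FoP WT (log2 -0.48 ± 0.08, adjusted p = 0.000411, and -0.32 ± 0.08, adjusted p = 0.0103; 0.134 in FoP without WT duplicate 2 and 0.153 with summed duplicates). Gstp2 had 0.450 and 0.887 CPM in clone 2.9 and 0.181 and 0.278 CPM in clone 2.10, against 1.41 and 1.49 CPM in CVP WT. Clone 2.4 had 0.456 and 0.279 CPM and clone 2.5 had 0.175 and 0.156 CPM, against 2.98 and 2.62 CPM in FoP WT. The falls were log2 -1.69 ± 0.50 (adjusted p = 0.0145; 0.0679 without clone 2.10) and -3.38 ± 0.51 (adjusted p = 0.00041). Neither call was kept with summed duplicates, and the CVP call also ended without either CVP WT library. Because 49.1% of the windows of Gstp2 also occur in Gstp1, and 33.7% of those of Gstp1 occur in Gstp2, the levels of both are uncertain.

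Gsta1, an alpha-class transferase known as inducible in mouse liver, had 0.0310 and 0.0158 CPM in clone 2.9 and 0 and 0.0928 CPM in clone 2.10, against 0.249 and 0.139 CPM in CVP WT. It held 9 counts over the 4 CVP KO libraries against 27 in CVP WT, a WT to KO ratio of 5.53 (95% counting interval 2.52 to 13.4), with a fitted log2 of -2.41 ± 0.79 (adjusted p = 0.0241; 0.178 without CVP WT duplicate 1 and 0.0541 without the second library of clone 2.9). In FoP it had 0.213 and 0.186 CPM in clone 2.4 and 0.0953 and 0.174 CPM in clone 2.5, which overlapped 0.174 and 0.226 CPM in FoP WT. As 90.5% of its windows are shared with other genes, reads of Gsta1 cannot be placed with confidence. Gstt1, a theta-class transferase, averaged 7.87 ± 2.89 CPM in CVP KO against 14.9 ± 1.70 CPM in CVP WT and fell (log2 -0.92 ± 0.26, adjusted p = 0.0131; 0.105 without CVP WT duplicate 1), and averaged 4.95 ± 0.697 CPM in FoP KO against 7.90 ± 0.491 CPM in FoP WT (-0.67 ± 0.27, adjusted p = 0.0834). Gstt3 passed in neither line, at 24.1 ± 1.03 CPM in CVP KO against 23.2 ± 0.585 CPM in CVP WT and 19.1 ± 1.14 CPM in FoP KO against 17.6 ± 1.45 CPM in FoP WT.

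The 3 described UDP-glucuronosyltransferases all belong to the Ugt1a locus on chromosome 1, whose genes share their last exons, so their reads cannot be placed with confidence and their counts are uncertain. Ugt1a6b had 2.19 and 1.89 CPM in clone 2.9 and 1.60 and 1.56 CPM in clone 2.10, against 4.33 and 4.40 CPM in CVP WT. Clone 2.4 had 2.16 and 2.11 CPM and clone 2.5 had 3.13 and 2.05 CPM, against 2.53 and 3.17 CPM in FoP WT. It fell in CVP (log2 -1.27 ± 0.21, adjusted p = 0.000363) and overlapped in FoP (-0.27 ± 0.22, adjusted p = 0.399). Ugt1a7c differed between clones in both lines, with 0.868 and 0.618 CPM in clone 2.9 and 0.211 and 0.108 CPM in clone 2.10, against 1.45 and 2.73 CPM in CVP WT. Clone 2.4 had 0.410 and 0.372 CPM and clone 2.5 had 3.35 and 2.41 CPM, against 1.13 and 1.71 CPM in FoP WT. It passed in neither line (log2 -2.21 ± 0.94, adjusted p = 0.0806, and 0.20 ± 0.96, adjusted p = 0.905), and the FoP clones stood on opposite sides of WT. Ugt1a6a had 0.248 and 0.554 CPM in clone 2.9 and 0.331 and 0.325 CPM in clone 2.10, against 0.103 and 0.180 CPM in CVP WT. Clone 2.4 had 0.304 and 0.170 CPM and clone 2.5 had 0.318 and 0.208 CPM, against 0.479 and 0.518 CPM in FoP WT. Its CVP rise (log2 1.35 ± 0.50, adjusted p = 0.0396) stood in 11 of 24 alternatives, with an adjusted p of 0.251 and 0.0596 without CVP WT duplicates 1 and 2, 0.0973 without the second library of clone 2.9, 0.0534 without the first of clone 2.10 and 0.0512 and 0.0516 without FoP WT duplicates 1 and 2, and the FoP value did not pass (-0.99 ± 0.44, adjusted p = 0.111).

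Of the sulfotransferases, Sult2b1, which sulfonates cholesterol and other steroids in stratified epithelium, held nearly all counts. It had 2.28 and 2.71 CPM in clone 2.9 and 1.42 and 2.44 CPM in clone 2.10, against 14.6 CPM in each CVP WT library. Clone 2.4 had 5.79 and 5.19 CPM and clone 2.5 had 3.23 and 3.96 CPM, against 11.1 and 12.2 CPM in FoP WT. It fell in both lines (log2 -2.72 ± 0.24, adjusted p = 3.75e-06, and -1.36 ± 0.23, adjusted p = 0.00107; 0.0907 in FoP with summed duplicates). Sult1a1, a phenol sulfotransferase, had 0.109 and 0.127 CPM in clone 2.9 and 0.301 and 0.186 CPM in clone 2.10, against 0.0586 and 0.0833 CPM in CVP WT. Clone 2.4 had 0.122 and 0.186 CPM and clone 2.5 had 0.143 and 0.0347 CPM, against 0.102 and 0.259 CPM in FoP WT, and it passed in neither line.

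**Figure D3:**
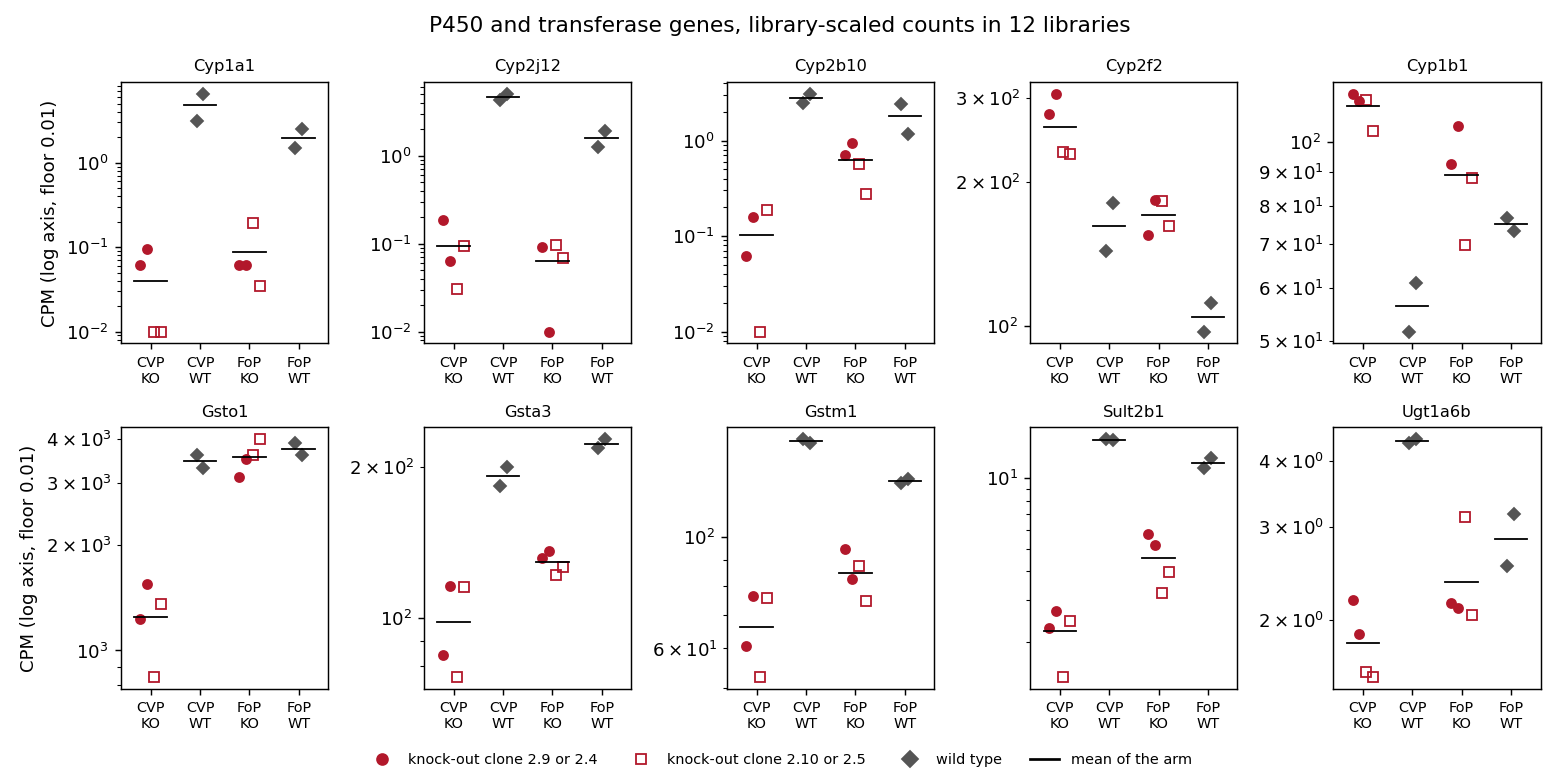
CPM on a log axis (values below 0.01 drawn at 0.01) of 5 P450 genes (upper row) and 5 transferase genes (lower row) in each library, with KO left of WT in each line, circles and squares for the 2 clones and a bar at the mean of each arm. Cyp1a1 and Cyp2j12 sit below 0.2 CPM in all 8 KO libraries and above 1 CPM in all 4 WT libraries. Cyp2f2 is higher in KO of both lines, and Gsto1 is lower in CVP KO and overlaps WT in FoP.

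The difference of the 2 KO effects, tested in the same fit as FoP effect minus CVP effect, passed for 9 of the 53 members, 4 positive and 5 negative (15.8% of all genes passed, 7.28% positive and 8.49% negative). The largest were Cyp2r1 (log2 -5.03 ± 1.45, adjusted p = 0.0339), Ces1g (-3.73 ± 0.92, adjusted p = 0.0173) and Cyp2b10 (3.22 ± 0.95, adjusted p = 0.0405). Ugt1a6a was at -2.34 ± 0.66, Cyp4f16 at -0.94 ± 0.22 and Cyp1b1 at -0.76 ± 0.19. Gsto1 was at 1.40 ± 0.26 (adjusted p = 0.00665), Sult2b1 at 1.36 ± 0.35 and Ugt1a6b at 1.00 ± 0.31, and for these 3 the log2 change was more negative in CVP than in FoP. All 3 fell in CVP, and of them only Sult2b1 also fell in FoP. No other carboxylesterase passed; the steep falls of Ces1d and Ces1f were not shown to differ between lines. The count fell without any 1 of the 4 WT libraries, as did the share of all genes called. Such a fit leaves 1 WT library in a line. Without clone 2.10 the count was 14 (26.4% of the 53, against 17% of all genes).

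In WT organoids, FoP against CVP, 3 of the 53 members passed (6.68% of all genes, 3.77% higher and 2.91% lower), all lower in FoP. Ces1e averaged 1.22 ± 0.0166 CPM in FoP WT against 3.54 ± 1.51 CPM in CVP WT (log2 -1.54 ± 0.37, adjusted p = 0.03). Cyp2f2 averaged 104 ± 10.2 CPM in FoP WT against 162 ± 26.3 CPM in CVP WT (-0.64 ± 0.16, adjusted p = 0.0373). Gstt3 averaged 17.6 ± 1.45 CPM in FoP WT against 23.2 ± 0.585 CPM in CVP WT (-0.40 ± 0.09, adjusted p = 0.0196), and 12.5% of its windows are shared with other genes. The edgeR calls were lost without any 1 of the 4 WT libraries, and the share of all genes called fell too. Such a fit leaves 1 WT library in a line. The DESeq2 Wald test on all libraries called 6 (14% of members tested, against 14.7% of all genes). Line is confounded with culture in this comparison, since each line has 1 WT label.

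Clones of a line were compared from the spread of duplicates alone. Clone 2.10 differed from clone 2.9 for 15 of the 53 members (28.3%, against 5.42% of all genes), 4 higher and 11 lower (2.89% and 2.54% of all genes). Clone 2.5 differed from clone 2.4 for 9 (7.26% of all genes), 4 higher and 5 lower (3.53% and 3.72%). The esterases Ces2e, Ces2f and Ces2g were lower in clone 2.10 (log2 -0.59 ± 0.11, -0.86 ± 0.22 and -0.95 ± 0.10) and in clone 2.5 (-0.56 ± 0.11, -0.94 ± 0.23 and -0.62 ± 0.10). Clones 2.10 and 2.5 are also the ones with the lower Foxe1 counts in their line (log2 -1.55 against 2.9 and -0.90 against 2.4); with 2 clones a line, the part of that in the esterase levels was not tested.

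Other members differed in opposite directions in the 2 lines. Ces1d was lower in clone 2.10 than in clone 2.9 (log2 -1.57 ± 0.23) and higher in clone 2.5 than in clone 2.4 (1.30 ± 0.24). Ugt1a7c did the same (-2.20 ± 0.47 and 2.88 ± 0.40), as did Gsta4 (-0.31 ± 0.07 and 0.27 ± 0.07), while Gstt2 went the other way round (2.15 ± 0.51 and -1.82 ± 0.52). Gstt2, under 1 CPM in every arm, was chosen after its values were seen. Ces1f (-2.50 ± 0.34), Cyp4f39 (-2.79 ± 0.40), Cyp3a13 (-2.01 ± 0.26), Gstp2 (-1.54 ± 0.42) and Cyp2j6 (-0.24 ± 0.06) were lower in clone 2.10 than in clone 2.9 and did not pass between the FoP clones. Gstt1 (0.89 ± 0.17) and Gstm4 (0.43 ± 0.12) were higher in it, and Cyp4v3 was lower in clone 2.5 (-0.64 ± 0.14). Gstm5 was higher in both (0.51 ± 0.09 and 0.31 ± 0.09). The counts fell without either library of clone 2.9 in CVP and without any 1 library of clones 2.4 and 2.5 in FoP. The share of all genes called fell as well. Such a fit leaves 1 library in a clone.

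Many members lie in gene clusters, and in several of these the members did not all move one way. Others did: Gstp1 and Gstp2 fell in both lines, and Gsto1 and Gsto2 both fell in CVP KO. Of all genes, 23.5% were higher and 22.9% lower in CVP KO, and 13.5% and 15.3% in FoP KO. In GENCODE M21 (GRCm38), the 6 described Ces1 genes lie within 359.5 kb on chromosome 8 (chr8:93020214-93379725), where 5 fell and Ces1g rose in CVP KO and 4 fell in FoP KO. The 5 described Ces2 genes lie within 287.2 kb on the same chromosome (chr8:104734003-105021178), with 1 higher, 1 lower and 3 not passing in CVP KO. The 6 described Gstm genes lie within 149.1 kb on chromosome 3 (chr3:107895821-108044894), with 1 higher and 2 lower in both lines. Cyp2s1 and Cyp2b10 share a stretch of chromosome 7 and fell in CVP KO, while Cyp2f2, in the next cluster, rose. Exons of Cyp2f2 are overlapped over 13.5% of their length by Gm15883 on the other strand, and those of Sult2b1 over 8.13% by Lmtk3 and Gm31597 together, also on the other strand, so part of their reads can come from those genes. Gstm5 is overlapped over 13.9% by 4933431E20Rik on the other strand. On the same strand, Gm20441 overlaps 13.6% of Gstt3 and Gm45753 overlaps 8.22% of Cyp4v3, so the levels of these genes are uncertain too.

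The other genes of the pathway were taken from lists of electron donors, cofactor supply, further oxidising and conjugating enzymes, transporters and sensors. Of 131 listed, 103 were tested; 27 rose and 39 fell in CVP KO (64.1% passed, against 46.4% of all genes; median log2 -0.15), and 20 rose and 26 fell in FoP KO (44.7%, against 28.8%; median -0.06; 29 passed in FoP without WT duplicate 1). Por, the reductase that feeds microsomal P450 enzymes, averaged 124 ± 26.5 CPM in CVP KO against 513 ± 42.4 CPM in CVP WT. Means were 176 ± 7.14 CPM in FoP KO against 394 ± 9.71 CPM in FoP WT. It fell in both (log2 -2.04 ± 0.15, adjusted p = 3.74e-06, and -1.16 ± 0.15, adjusted p = 0.000309), whereas the cytochrome b5 gene Cyb5a and its reductase Cyb5r3 rose slightly in both (0.21 and 0.34 in CVP, 0.36 and 0.35 in FoP).

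The 10 genes listed under glutathione supply include Gpx2, whose product uses glutathione, and Chac1 and Chac2, whose products break it down. Of the 10 genes, 5 fell in CVP KO and 2 in FoP KO, and none rose. These were 50% and 20% of the list, against 22.9% and 15.3% of all genes lower. The cystine carrier Slc7a11 averaged 17.9 ± 5.88 CPM in CVP KO against 104.7 ± 24.97 CPM in CVP WT and fell (log2 -2.55 ± 0.32), and was at -0.89 ± 0.32 in FoP (adjusted p = 0.0682). The glutathione peroxidase Gpx2 fell in both lines (-1.54 ± 0.11 and -0.81 ± 0.11), the synthesis subunit Gclm in CVP (-0.75 ± 0.07), and its catalytic partner Gclc in FoP (-0.25 ± 0.07). Of 11 tested genes for UDP-glucuronate and sulfate supply and removal, 5 rose and 1 fell in CVP KO and 3 rose in FoP KO. The share called was 54.5% in CVP and 27.3% in FoP, against 46.4% and 28.8% of all genes. The sulfate donor synthase Papss2 was at 1.07 ± 0.18 in CVP and 0.13 ± 0.18 in FoP (adjusted p = 0.644), and the glucuronidase Gusb rose in both (0.95 ± 0.10 and 0.54 ± 0.10).

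Among 26 further oxidising and hydrolysing enzymes tested, 10 rose and 9 fell in CVP KO and 9 rose and 7 fell in FoP KO. The share called was 73.1% in CVP and 61.5% in FoP, against 46.4% and 28.8% of all genes. The retinal dehydrogenase Aldh1a1 (log2 2.14 ± 0.48 and 1.63 ± 0.48) and the aldehyde oxidase Aox1 (1.00 ± 0.09 and 0.89 ± 0.09) rose in both lines. The related Aox3 fell in CVP (-2.04 ± 0.38) and was at 0.21 ± 0.39 in FoP. Of 13 other conjugating enzymes 4 rose and 4 fell in CVP KO and 1 rose and 1 fell in FoP KO. These calls were 61.5% and 15.4% of the list, against 46.4% and 28.8% of all genes. The FoP share lay below that of all genes. Glyat, the glycine conjugating enzyme, held 10 counts in CVP KO against 92 in CVP WT and 2 in FoP KO against 55 in FoP WT. Of 9 transporters 2 rose and 4 fell in CVP KO and 1 rose and 3 fell in FoP KO. These calls were 66.7% and 44.4% of the transporters, against 46.4% and 28.8% of all genes. Among the transporters the organic anion carrier Slco4a1 was at -3.17 ± 0.24 and -1.31 ± 0.24. The conjugate exporter Abcc3 was at -2.22 ± 0.16 and -0.43 ± 0.16 (adjusted p = 0.067 in FoP) and Abcc5 at 0.90 ± 0.15 and 0.92 ± 0.15.

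Of 17 sensors tested, 2 rose and 10 fell in CVP KO (11.8% and 58.8%, against 23.5% and 22.9% of all genes). In FoP KO 3 rose and 5 fell (17.6% and 29.4%, against 13.5% and 15.3% of all genes). The transcript of Ahr passed in neither line, at 245 ± 44.4 CPM in CVP KO against 304 ± 18.0 CPM in CVP WT (log2 -0.31 ± 0.13, adjusted p = 0.0727) and 335 ± 19.0 CPM in FoP KO against 328 ± 15.8 CPM in FoP WT (0.03 ± 0.13, adjusted p = 0.889). Of the 4 other AHR targets listed, Nqo1 fell in both lines (-0.82 ± 0.11 and -0.54 ± 0.11), Aldh3a1 rose in both (0.41 ± 0.11 and 0.59 ± 0.11), Tiparp fell in CVP (-0.26 ± 0.07) and was at -0.04 ± 0.07 in FoP, and the AHR repressor Ahrr, with 20 and 4 counts in CVP KO and CVP WT and 5 and 20 in FoP KO and FoP WT, passed in neither. Their directions thus differed from gene to gene. Nfe2l2, which encodes NRF2, fell by a small amount in both lines (-0.42 ± 0.05 and -0.32 ± 0.05), and its small MAF partner gene Maff fell too (-2.10 ± 0.22 and -0.92 ± 0.22). Of 15 NRF2 targets outside the classes above, 1 rose and 9 fell in CVP KO and 1 rose and 10 fell in FoP KO. The falls were 60% and 66.7% of the list, against 22.9% and 15.3% of all genes lower. The list is not separate from those above, as Slc7a11, Gclm, Gclc, Gsr, Nqo1, Abcc1 and Hmox1 are in both. Falls in both lines included the thioredoxin reductase Txnrd1 (-0.58 ± 0.05 and -0.72 ± 0.05) and Srxn1 (-0.64 ± 0.06 and -0.31 ± 0.06). The nuclear receptor gene Nr1h3 (1.33 ± 0.21 and 1.46 ± 0.22) and Arnt2 (2.55 ± 0.62 and 2.26 ± 0.60) rose in both lines, while the genes of the xenobiotic receptors PXR and CAR (Nr1i2 and Nr1i3) were too low to test.

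**Figure D4:**
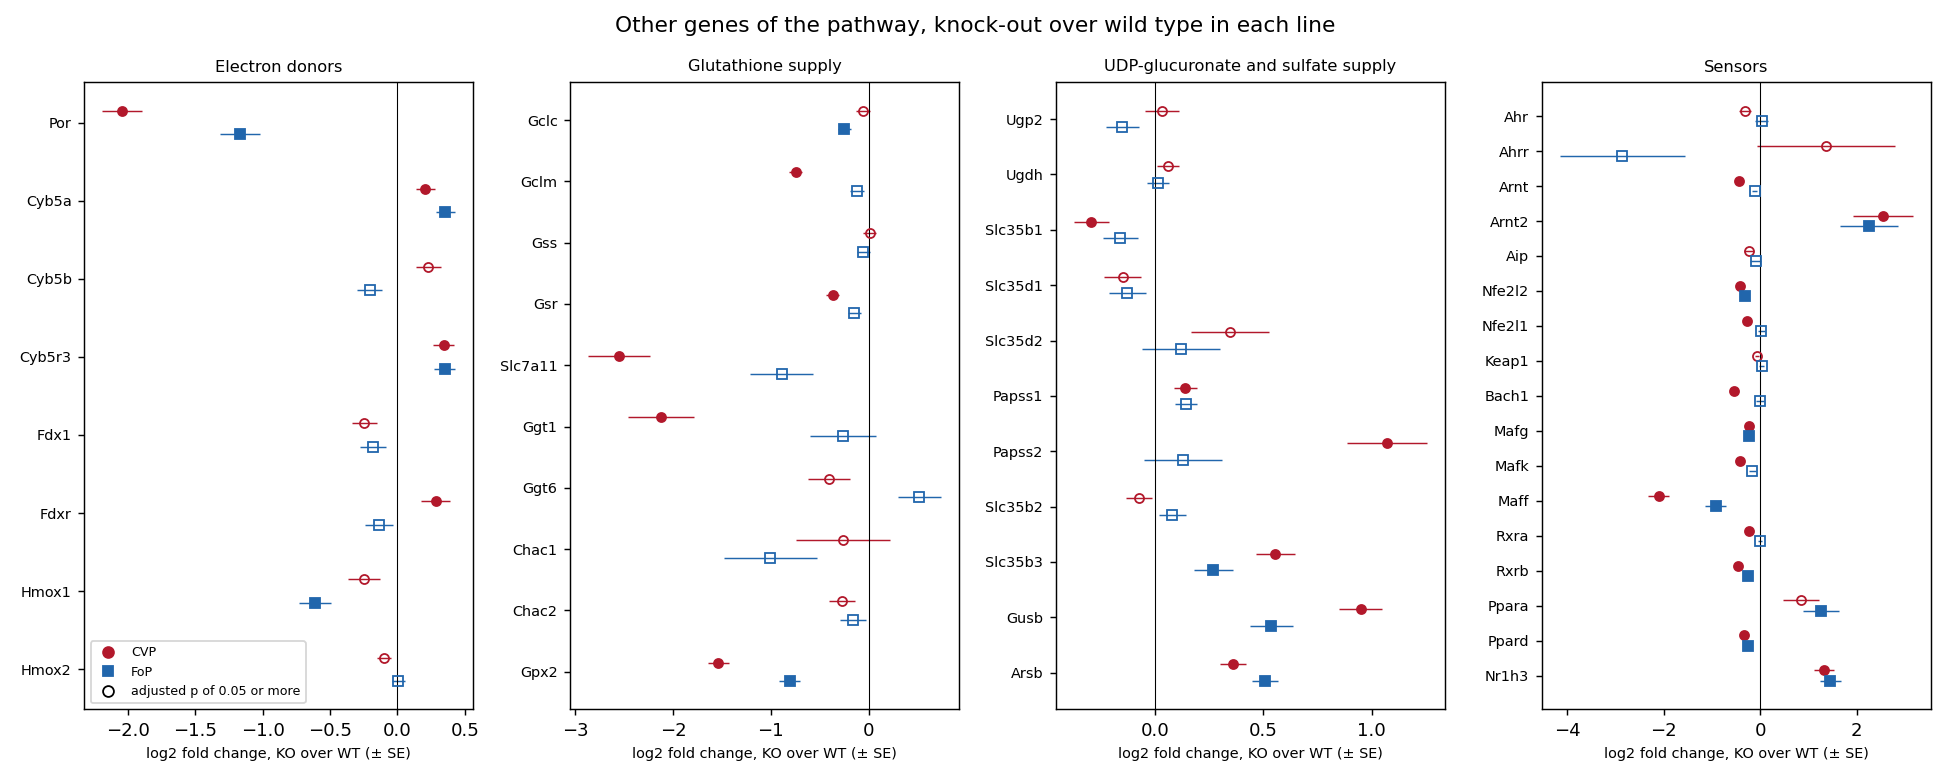
Log2 fold change with bars of 1 standard error, KO over WT, for electron donors, glutathione supply, UDP-glucuronate and sulfate supply, and sensors, with CVP as circles above FoP as squares and open symbols for an adjusted p of 0.05 or more. Por, Slc7a11, Ggt1, Gpx2 and Maff lie farthest left in CVP, and Nr1h3 and Arnt2 lie right of 0 in both lines.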

How the data were processed

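Poly(A) RNA was read by stranded mRNA sequencing in 12 libraries, per the labels' protocols. The authors deposited raw read counts per gene symbol; STAR and featureCounts, with build hg38, are named in the submitters' processing notes without versions, while the symbols are those of mouse, and none of the sources used here gives the strand setting. Among the 237 counts of 1 to 100 of the described members 69.6% were even, and the table holds 20289 values of 2 against 6626 of 3, so counts of single reads may be overstated; halving the counts was an alternative. Counting intervals cover counting error only, and such double counting would make them too narrow. They also leave out the spread between duplicates and between clones. Over well-counted genes, duplicates varied 8.18 (FoP WT) to 40.75 (clone 2.10) times as much as counting alone gives (chi-square per degree of freedom).

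From these counts, edgeR 4.0.16 (R 4.3.3) was used with its default expression filter, TMM scaling and a robust quasi-likelihood fit of 4 arms (line by genotype), or of 6 cultures for clones against each other, on 17076 genes. Benjamini-Hochberg adjustment ran over all of them, with a threshold of 0.05. A standard error is the log2 fold change divided by the root of its F statistic. All tests are two-sided and steps were tested on simulated data. Alternatives were DESeq2 1.42.0, limma 3.58.1 voom, other scaling and filters, summed duplicates, duplicate number as a block and libraries or clones left out. Members and lists were chosen with earlier results of these data known. Members with a mean of at least 1 CPM in an arm, or called in a line, are named; values of every library are given for up to 3 of the most abundant and up to 3 of the most changed members of each class. The planned protein comparison was replaced by the share of 50-base transcript windows (GENCODE M21) that occur in other genes.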

Additional observations from a re-analysis of the deposited data

Results flagged for a closer look

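In FoP KO, 1 library stood apart from the other 3 by Dixon's criterion for 3 genes of 90 groups of 4 libraries checked, and chance gives about 1 in 20. Cyp2r1 had 0.0318 CPM in the first library of clone 2.5, with the other 3 at 0; this value is 2 counts, and any value above 0 meets the criterion when the others are all 0. Gstm7 had 1.56 CPM in the second library of clone 2.5, with the others at 0.929 to 0.985 CPM. Ugt1a6b had 3.13 CPM in the first library of clone 2.5, with the others at 2.05 to 2.16 CPM.

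The KO effect differed between lines, FoP effect minus CVP effect, for 9 members by the interaction test of edgeR with adjusted p under 0.05. That is 17% of the 53, near the 15.8% of all genes tested. The log2 difference was -3.73 for Ces1g, -0.76 for Cyp1b1, 3.22 for Cyp2b10, -5.03 for Cyp2r1, -0.94 for Cyp4f16, 1.40 for Gsto1, 1.36 for Sult2b1, -2.34 for Ugt1a6a and 1.00 for Ugt1a6b.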

How the results depend on the processing

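Against a 2-fold change, calls among members numbered 8 in CVP and 3 in FoP (15.1% and 5.66% of the 53, against 2.99% and 1.1% of all genes), 0 for the difference between lines (5 at an unadjusted p under 0.05, edgeR) and 0 in WT (2), and 1 for each pair of clones; of the other pathway genes 9 and 1 passed. With duplicates summed, members called numbered 16 in CVP and 3 in FoP (30.2% and 5.66% of the 53, against 20% and 2.18% of all genes), 0 for the difference (9 unadjusted) and 0 in WT (6), and other pathway genes 35 and 8. The difference gave 5 calls with no filter, 18 with 6 cultures as groups, 2 with voom, 12 with DESeq2 and 14 without clone 2.10. These were 9.43%, 34%, 3.77%, 25% and 26.4% of members tested, against 7.12%, 25.9%, 8.33%, 23.4% and 17% of all genes. WT gave 10, 1 and 6 with 6 cultures, voom and DESeq2. These were 18.9%, 1.89% and 14% of members tested, against 16.3%, 3.06% and 14.7% of all genes. With 1 library left out, members called ranged over 22 to 32 in CVP, 12 to 21 in FoP, 1 to 10 for the difference, 0 to 4 in WT, 9 to 15 for clone 2.10 and 3 to 12 for clone 2.5, and other pathway genes over 47 to 70 and 29 to 48. The share of all genes called moved in those fits too. With duplicate number as a replicate block, calls were 29, 17, 7, 3, 13 and 7 in the same order. All genes called in that fit were 44.7%, 27.1%, 13.9%, 5.24%, 5.24% and 6.69%. Deviations between duplicates were correlated over 0.1 for 3 of 15 pairs of cultures (range -0.157 to 0.358). Whether duplicates of the same number share more than that number was not tested. The cause of these moves was not tested, beyond the fewer libraries that some settings hold.

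Of the single-gene values and promoter motif counts under other settings 1015 stayed the same, 73 lost and 50 gained a call, 21 changed sign and 1 moved. The 1 that moved was the number of member promoters with TGACNNNGC, at 5 on both strands and 3 on the gene strand only. All that changed sign were uncalled: in FoP Cyp2j9 (0.00803 with no filter, 0.00186 with the strict filter and 0.10 without clone 2.5), Cyp2d22 (-0.0469 with 6 cultures, -0.0457 with voom and -0.49 without clone 2.4), Ugt1a7c (-0.42 with 6 cultures and with voom and -1.86 without clone 2.5), Ces2g (0.11 without clone 2.5) and, without clone 2.4, Ces1g (0.26), Ces2c (-0.0935), Ces2f (-0.0243), Cyp4v3 (-0.22) and Gsto1 (0.0240). In CVP they were Cyp2r1 (-0.15 with 6 cultures, -0.14 with voom and -1.42 without clone 2.10), Ces2e (-0.0137) and Gsta4 (-0.0478) without clone 2.9, and Gstm4 (-0.0755) without clone 2.10. With 1 library left out, the sign varied for Ces1g (-0.36 to 0.0837), Ces2c (-0.12 to 0.73), Cyp2d22 (-0.19 to 0.18), Cyp2j9 (-0.0607 to 0.0474), Cyp4v3 (-0.0126 to 0.26) and Ugt1a7c (-0.43 to 0.53) in FoP, and for Cyp2r1 (-0.10 to 0.69) and Cyp4f17 (-0.0343 to 0.0878) in CVP. Members under 1 CPM rest on few counts, and at this depth small differences in them were not detectable.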
